A study of Mus musculus with 2 samples.

Results

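The peripheral myelin genes described here were *Mbp*, *Pmp22*, *Pmp2*, *Prx*, *Mag*, *Cnp*, *Ncmap* and *Cldn19*. They were taken from the deposited count table by gene symbol, 8 of its 32286 rows, and all 8 had UMIs in both libraries. A UMI (unique molecular identifier) marks 1 captured RNA molecule, and the 8 genes held 43155 UMIs, 17802 of them female and 25353 male. Single-nucleus RNA was sequenced from the vagus nerve ganglia of C57BL/6J mice of the genotype Rosa26-floxed-STOP-Cas9-eGFP, which were 8 to 9 weeks old when bought and were kept on chow. A retrograde adeno-associated virus carrying Cre (AAVrg-Cre) was given into the liver of every mouse, and the ganglia were taken 4 weeks later, so that no group was without the virus. The female library was 1 pool of 14 ganglia of 7 mice and the male library 1 pool of 16 ganglia of 8 mice. With 1 pool and 1 library for each sex, no test was made, and an effect of sex and one of the library cannot be told apart. Values are given by library, female first, unless they are said to be over both libraries, and the ranges in parentheses are 95% intervals that cover counting error only.

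A Schwann cell that myelinates wraps 1 stretch of axon in many turns of its own membrane. In compact myelin the turns are pressed together and little cytoplasm is left, while in non-compact myelin, at the paranodes, the inner and outer turns and the incisures, channels of cytoplasm remain. Non-myelinating Schwann cells hold thin axons in troughs without a sheath. In the central nervous system oligodendrocytes make myelin, and *Mbp*, *Mag* and *Cnp* are used by both kinds of cell, whereas *Pmp22*, *Pmp2* and *Prx* are best known from peripheral nerve. Vagal sensory axons are both myelinated and unmyelinated, and their cell bodies lie in these ganglia beside satellite glia.

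The genes play different parts in the sheath. *Mbp* (myelin basic protein) binds the cytoplasmic faces of the membrane in compact myelin, *Pmp22* is a membrane protein of compact myelin whose change in dose causes hereditary neuropathy, and *Pmp2* is a fatty acid binding protein of compact myelin. *Prx* (periaxin) sits at the outer, abaxonal membrane and ties it through *Drp2* to dystroglycan. *Mag* (myelin-associated glycoprotein) faces the axon, *Cnp* is an enzyme that keeps cytoplasmic channels open, *Cldn19* forms the tight junctions of Schwann cells, and *Ncmap* is a membrane protein of non-compact myelin.

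In the mm10 build, with the GENCODE M21 annotation, the genes lie on 5 chromosomes and span 4.079 kb for *Pmp2* to 110.492 kb for *Mbp*. Introns were counted, so that levels of a gene were compared between nuclei and not between genes. *Prx* (chr7:27499324-27520214, plus strand) overlaps the minus-strand gene *Gm15541*, *Cnp* (chr11:100574904-100591729, plus) overlaps *Dnajc7* on the minus strand, and *Mbp*, *Cldn19* and *Ncmap* each overlap a gene on the other strand as well. *Pmp2* (chr3:10179851-10183929, minus) overlaps *Gm37389* on its own strand. *Pmp22* (chr11:63128982-63159547, plus) and *Mag* (chr7:30899176-30914873, minus) overlap no other annotated gene, and *Cldn19* lies at chr4:119255414-119262438 (plus) and *Ncmap* at chr4:135369576-135398227 (minus). The sources used here do not give the rule by which reads in such overlaps were assigned, and those values are uncertain to that extent. *Mbp* has 16 annotated transcripts, which one count per gene does not separate.

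The start regions are shown because *Sox10* and *Egr2*, which are known to switch on myelin genes, bind short sequences of known letters. Promoter windows from RefSeq (GRCm38.p6) were searched for 6 of the 8 genes: *Cldn19*, *Cnp*, *Mag*, *Ncmap*, *Pmp22* and *Prx*. The letters searched, on both strands, were ACAAAG, which lie within the sequence that SOX proteins bind, and GTGGGNG, which lie within that of EGR proteins. Matches of both motifs can share at most 2 letters at their ends. Capitals mark a match in the windows below, which are read 5′ to 3′ on the strand of the gene, stop short of any annotated exon of the gene, and run chr7:27499074-27499323 (plus) for *Prx*, chr7:30914923-30915172 (minus) for *Mag*, chr11:100574689-100574903 (plus) for *Cnp* and chr11:63128732-63128981 (plus) for *Pmp22*.
*Prx*: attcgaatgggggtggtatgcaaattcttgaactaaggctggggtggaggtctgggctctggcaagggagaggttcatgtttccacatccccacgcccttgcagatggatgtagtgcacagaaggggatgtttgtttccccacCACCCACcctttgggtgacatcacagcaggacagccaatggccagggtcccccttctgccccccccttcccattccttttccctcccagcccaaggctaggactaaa
*Mag*: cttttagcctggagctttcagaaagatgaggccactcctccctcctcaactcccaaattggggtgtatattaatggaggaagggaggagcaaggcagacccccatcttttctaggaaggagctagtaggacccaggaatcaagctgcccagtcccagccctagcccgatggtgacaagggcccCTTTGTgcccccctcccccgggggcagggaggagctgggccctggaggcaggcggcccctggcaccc
*Cnp*: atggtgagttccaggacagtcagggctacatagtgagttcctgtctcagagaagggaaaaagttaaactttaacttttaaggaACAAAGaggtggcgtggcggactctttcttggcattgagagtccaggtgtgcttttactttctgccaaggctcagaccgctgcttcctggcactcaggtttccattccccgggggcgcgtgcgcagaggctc
*Pmp22*: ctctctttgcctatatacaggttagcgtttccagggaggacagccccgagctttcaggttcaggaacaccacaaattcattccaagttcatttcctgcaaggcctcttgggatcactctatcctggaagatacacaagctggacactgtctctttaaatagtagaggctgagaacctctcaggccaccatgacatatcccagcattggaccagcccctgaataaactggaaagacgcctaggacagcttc
The *Prx* window holds GTGGGNG on the opposite strand, the *Mag* window ACAAAG on the opposite strand, the *Cnp* window ACAAAG on its own strand, and the *Pmp22* window neither. The search itself covered the full 250 bases before each of the 13 listed starts of the 6 genes. Starts of 1 gene can lie so close that their windows share a match, so that the matches are counted by gene. ACAAAG was found before a start of 2 of the 6 genes (*Cnp* and *Mag*) and GTGGGNG before a start of 4 (*Cldn19*, *Mag*, *Ncmap* and *Prx*). Of 27025 genes searched in the same way, 5015 had ACAAAG and 8313 GTGGGNG before a start, and of all 32851 windows 16.5% held the first, 28.1% the second and 3.93% both. These matches are a description of the letters only, and 6 genes are too few to set the members apart from other genes.

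The female library held 3791 nuclei and the male library 4923, with medians of 2381 and 2658 UMIs per nucleus. Clusters of nuclei were rebuilt from the counts without the 8 genes, 36 further myelin-related genes and the sex-linked genes. Clusters 1 and 6 were called Schwann cell-like because markers of myelinating Schwann cells stood out most of 13 lists, with 8 of 8 raised in each (*Drp2*, *Egr2*, *Pllp*, *Dusp15*, *Dhh*, *Mal*, *Slc36a2* and *Bcas1*). They held 538 female nuclei (14.2%) and 694 male nuclei (14.1%). Cluster 16, led by *Cdh19*, was called non-myelinating Schwann cell-like and held 272 female and 53 male nuclei. It had 4 of the 6 markers of that list raised, and the oligodendrocyte list came second. Cluster 3, led by *Ednrb* and *Fabp7*, had markers of both non-myelinating Schwann cells and satellite glia and was left unnamed, with 57 female and 543 male nuclei. It had 5 of the 6 non-myelinating markers raised, and *Cdh19* was among its leading genes too. Macrophage-like nuclei (136 female and 137 male), which should make no myelin, served as the reference for stray RNA because their depth was close to that of Schwann cell-like nuclei, with medians of 1723 and 1871 against 1770 and 1964 UMIs. Cerebellar granule cell-like nuclei, a cell of another tissue, numbered 403 female and 24 male. Of 6 oligodendrocyte markers, 4 had UMIs in Schwann cell-like nuclei of each library, with summed levels of 0.274 and 0.290 per 10000 UMIs. The defining gene *Opalin* was at 0 in both, while *Mog* was at 0 among female and had 5 UMIs among male nuclei. *Mobp* was higher than in all other nuclei, at 0.0807 and 0.101 per 10000 against 0.0154 and 0.0171. *Cldn11* was at 0.145 and 0.145 against 0.219 and 0.128. *Hapln2* had 1 and 3 UMIs and *Ermn* 5 and 0, and the source of this RNA was not tested. The libraries shared 8 barcodes, and *Xist* UMIs numbered 13424 among female nuclei against 7 among male nuclei.

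All 8 genes were higher in Schwann cell-like nuclei than in all other nuclei summed, from 5.24-fold to 22.4-fold with each library taken separately. Levels are a gene's UMIs in a set of nuclei per 10000 UMIs of all genes in that set. A gene was counted as raised at 4-fold or more in both libraries, which 391 of 19305 genes of at least 20 UMIs reached, or 2.03%, and 1.62% of the 13422 genes of at least 200 UMIs. All 8 members reached it. Their median log2 ratio was 3.89 among female and 4.06 among male nuclei, while the median over all genes tested was -0.08 and -0.02.

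Of the compact myelin genes, *Mbp* stood at 18.7 per 10000 UMIs (interval 17.9 to 19.5) in the female and 13.9 (13.3 to 14.4) in the male Schwann cell-like nuclei, and at 1.76 and 1.28 in all other nuclei. Its log2 ratio was 3.41 (3.33 to 3.49) and 3.44 (3.36 to 3.52), so that the intervals of the ratio overlapped between the libraries although those of the level did not. A *Mbp* UMI was seen in 91.8% and 87.8% of Schwann cell-like nuclei, and in 31.6% and 29.2% of macrophage-like nuclei. *Pmp22* stood at 34.9 (33.9 to 36.0) and 34.9 (34.0 to 35.8) per 10000 in Schwann cell-like nuclei and at 2.84 and 3.41 in all others. Its levels in Schwann cell-like nuclei overlapped between the libraries, whereas those in the other nuclei did not, and its ratio was 12.3-fold and 10.2-fold. Thinned to 1000 UMIs each, these nuclei held 3.33 *Pmp22* UMIs on average in both libraries, with SDs between nuclei of 2.90 and 2.59 and a highest nucleus of 25 and 16 UMIs. *Mbp* by the same measure was 1.78 (SD 1.48) and 1.21 (SD 1.2), SDs near the square root of the mean that counting alone gives, while those of *Pmp22* were wider.

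*Pmp2* was the rarest of the 8 genes, with 56 female and 93 male UMIs in Schwann cell-like nuclei. Its level there was 0.452 (0.341 to 0.587) and 0.519 (0.419 to 0.636) per 10000, against 0.0340 and 0.0241 in all other nuclei. The *Pmp2* UMIs came from few nuclei, 37 of 538 and 39 of 694, and the 10 nuclei with the most held 28 of the 56 and 59 of the 93 UMIs. A *Pmp2* UMI was seen in 6.88% and 5.62% of Schwann cell-like nuclei and in 2.21% and 1.46% of macrophage-like nuclei, whose intervals (0.457% to 6.31% and 0.177% to 5.17%) reach into the interval of the Schwann cell-like nuclei.

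*Prx*, the gene of the outer membrane, stood at 7.59 (7.11 to 8.09) and 5.36 (5.02 to 5.71) per 10000 in Schwann cell-like nuclei and at 0.354 and 0.263 in all others. This was 21.4-fold among female and 20.3-fold among male nuclei, and neither library's interval of the level overlapped that of the other nuclei. The gene *Gm15541*, which lies over *Prx* on the other strand, followed it, with 2.08 and 1.65 per 10000 in Schwann cell-like and 0.0704 and 0.0536 in other nuclei, and whether the 2 genes share reads was not tested.

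Of the genes of non-compact myelin, *Mag* had 139 and 149 UMIs in Schwann cell-like nuclei, a level of 1.12 (0.943 to 1.32) and 0.832 (0.704 to 0.977) per 10000, and was 19.1-fold and 19.8-fold over other nuclei. *Cldn19* stood at 1.86 (1.62 to 2.11) and 1.65 (1.47 to 1.85), 18.2-fold and 22.4-fold over others. *Ncmap* stood at 2.51 (2.24 to 2.80) and 1.73 (1.54 to 1.93), 16.5-fold and 14.0-fold over others. *Cnp* was the least confined of the 8, at 2.33 (2.07 to 2.62) and 2.08 (1.88 to 2.31) against 0.376 and 0.397, a log2 ratio of 2.63 (2.43 to 2.84) and 2.39 (2.21 to 2.56). The interval of *Cnp* lay below that of each of the other 7 genes in both libraries. *Dnajc7*, which overlaps *Cnp* on the other strand, was at 2.25 and 2.11 per 10000 in Schwann cell-like nuclei and 1.25 and 1.22 in all others, and whether its reads entered the *Cnp* counts was not tested.

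In single nuclei the genes were seen unevenly. A *Prx* UMI was found in 72.5% of female and 66.1% of male Schwann cell-like nuclei and in 6.62% and 10.2% of macrophage-like nuclei. *Mag* was found in 20.3% and 17.6% against 0.735% and 0.730%, *Cldn19* in 28.1% and 31.6% against 2.21% and 5.84%, and *Ncmap* in 37.0% and 31.8% against 1.47% and 5.84%. *Cnp* was found in 35.9% and 33.4% against 8.82% and 13.1%, the nearest of these 5 genes to the macrophage-like share relative to its own. After thinning each nucleus to 1000 UMIs, *Pmp22* was still seen in 91.7% and 90.8% of Schwann cell-like nuclei and *Mbp* in 80.5% and 68.2%. *Prx* was then seen in 48.9% and 39.8%, and *Pmp2* in 2.44% and 2.59%.

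**Figure D1:**
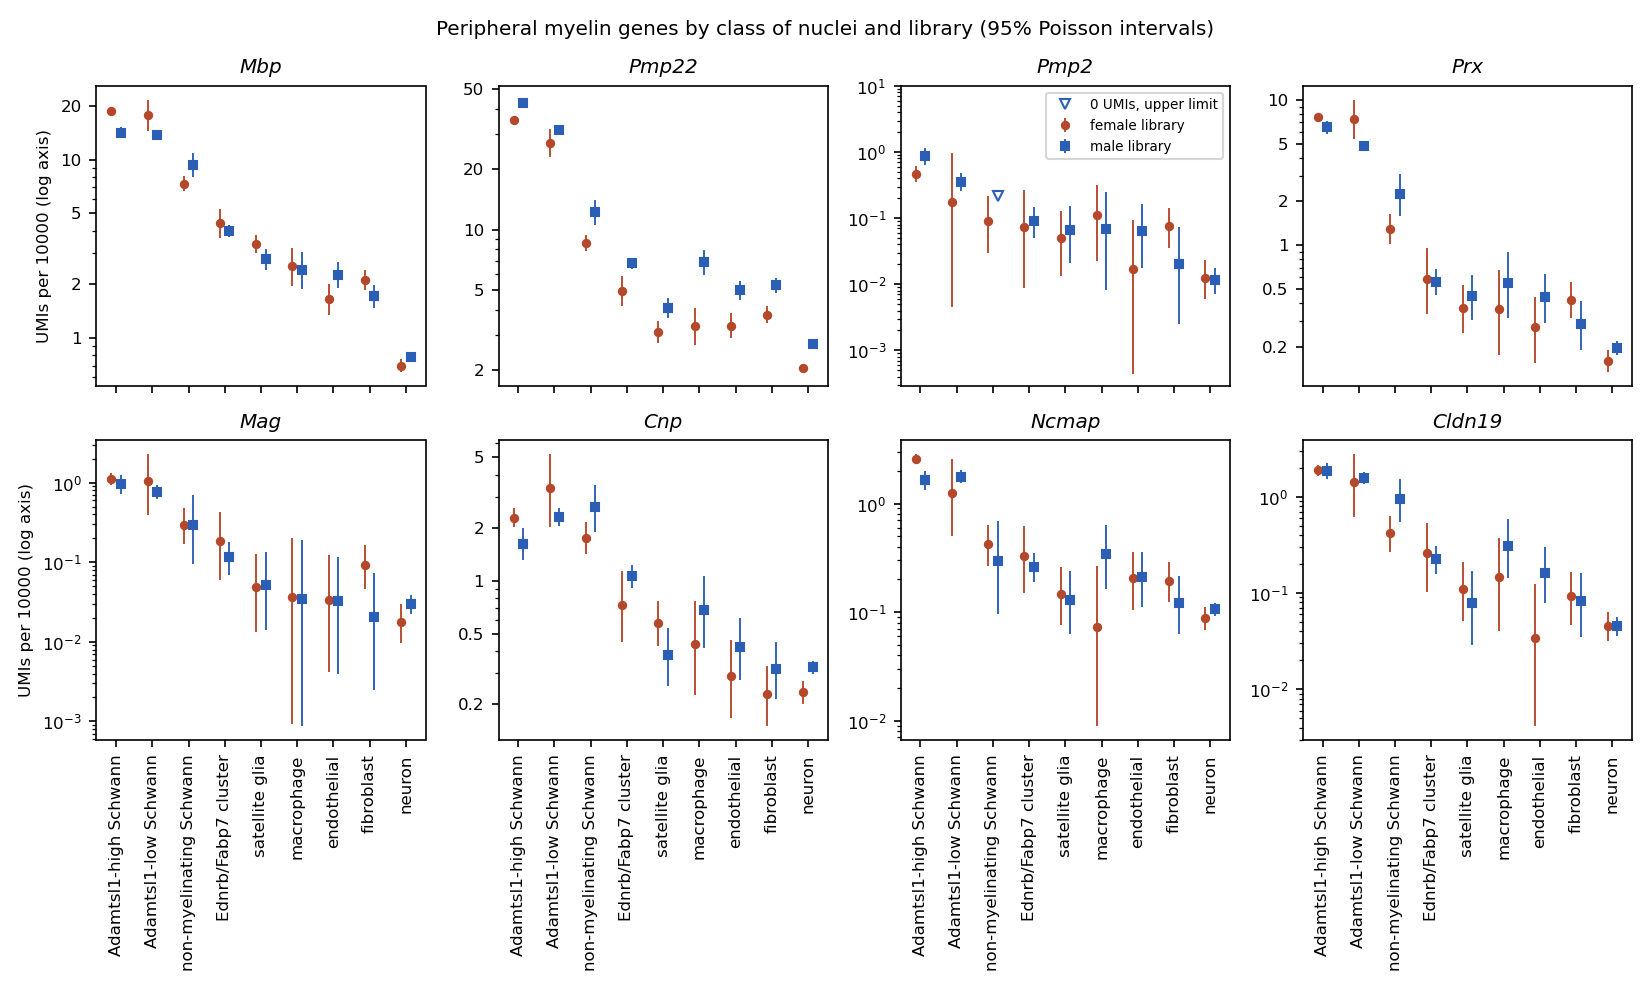
Level of each gene in UMIs per 10000 UMIs (log axis) in 9 classes of nuclei, female library as circles and male library as squares, bars showing exact 95% Poisson intervals and an open triangle the upper limit where no UMI was seen. The 2 Schwann cell-like clusters on the left stand highest for 7 genes in both libraries. For *Cnp* they stand highest in the female library only, and in the male library the non-myelinating Schwann cell-like nuclei lead with overlapping intervals.

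The share of a gene's UMIs that fell in Schwann cell-like nuclei, which are 14.1% of the nuclei and hold 6.74% of all UMIs, was largest for *Prx* over both libraries, at 60.3%, with 62.1% (59.6 to 64.6) among female and 58.6% (56.2 to 61.0) among male nuclei. *Mag* (59.4% and 58.0%), *Cldn19* (58.2% and 60.9%) and *Pmp2* (50.5% and 60.0%) were next to it with overlapping intervals. *Ncmap* had 55.8% and 49.3%, *Pmp22* 48.5% and 41.6%, *Mbp* 44.8% and 43.0%, and *Cnp* 32.2% and 26.7%. For all 8 genes together 45.2% of the UMIs lay in Schwann cell-like nuclei, 48.4% among female and 43.0% among male nuclei, so that more of their UMIs were read outside these nuclei than in them.

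The Schwann cell-like nuclei fell into clusters 1 and 6, which were named here by their levels of *Adamtsl1* and *Erbb4*. The study used these 2 genes beside *Pmp2* to pick out myelinating Schwann cells. Cluster 1, the *Adamtsl1*-high nuclei, had *Adamtsl1* at 2.89 and 5.87 per 10000 and cluster 6, the *Adamtsl1*-low nuclei, at 1.77 and 0.838. Neither cluster was shared evenly by the libraries, as the *Adamtsl1*-high cluster held 521 female and 162 male nuclei and the *Adamtsl1*-low cluster 17 female and 532 male nuclei. In the female library the intervals of *Adamtsl1* (2.59 to 3.21 and 0.848 to 3.25, the second on 10 UMIs) overlapped. Those of *Erbb4*, at 3.61 (3.27 to 3.97) and 1.77 (0.848 to 3.25, also on 10 UMIs), did not overlap. Both genes took part in the clustering, and their added levels gave the subsets their names, so that their difference is no separate result. Cluster 1 held 521 of the 538 female Schwann cell-like nuclei, and its *Adamtsl1* level was close to the 2.84 per 10000 of all of them. In the female library the name *Adamtsl1*-high thus sets no subset of high *Adamtsl1* apart. With 17 female nuclei in the *Adamtsl1*-low cluster, the comparison of subsets rests on the male library, and values pooled over both libraries mix the subset with the library.

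Most of the 8 genes differed by less than 2-fold between the subsets, and in the male library the intervals of *Pmp2*, *Pmp22*, *Prx* and *Cnp* left out 0. None of the 8 genes was counted as at least 2-fold higher in the same subset in both libraries. Of 11720 genes, 2.56% were at least 2-fold higher in the *Adamtsl1*-low and 0.93% in the *Adamtsl1*-high nuclei of both libraries. At such shares a count of 0 among 8 genes does not set the members apart from other genes. The one gene past 2-fold in either direction in the male library was *Pmp2*, at 0.871 (0.647 to 1.15) in *Adamtsl1*-high and 0.353 (0.256 to 0.476) in *Adamtsl1*-low nuclei, a log2 ratio of -1.30 (-1.92 to -0.68). These UMIs came from 24 and 15 nuclei, and the 10 nuclei with the most held 36 of 50 and 38 of 43 UMIs. The intervals take each UMI as independent and do not cover this concentration in few nuclei. In the female library 55 *Pmp2* UMIs in the *Adamtsl1*-high and 1 UMI in the *Adamtsl1*-low nuclei gave a ratio of -1.39, whose interval of -6.72 to 1.14 includes 0. *Pmp2* passed 2-fold in both libraries by these levels and fell short of it in the count because 0.5 UMIs were added to each sum there.

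*Pmp22* was lower in the *Adamtsl1*-low nuclei of both libraries, by less than 2-fold, with a log2 ratio of -0.38 (-0.63 to -0.15) among female and -0.45 (-0.52 to -0.37) among male nuclei. *Prx* stood at 7.60 and 7.43 per 10000 in the female library and at 6.46 and 4.83 in the male *Adamtsl1*-high and *Adamtsl1*-low nuclei, and only the male interval of the ratio (-0.61 to -0.23) left out 0. *Mbp* had ratios near 0, -0.07 (-0.37 to 0.22) and -0.04 (-0.17 to 0.08). *Cnp* ran the other way, at 2.28 and 3.36 among female and 1.62 and 2.30 among male nuclei, with ratios of 0.56 (-0.20 to 1.23) and 0.51 (0.16 to 0.86). *Mag* and *Cldn19* had ratios of -0.08 to -0.41 over both libraries with intervals that hold 0, and *Ncmap* had ratios of opposite sign, -1.05 (-2.38 to 0.01) and 0.11 (-0.25 to 0.47), on 7 UMIs in the female *Adamtsl1*-low nuclei. The median over the 8 genes was -0.23 among female and -0.29 among male nuclei, while all 11720 genes had medians of 0.27 and 0.06. Neuron markers moved with the subsets as well, with summed levels of 6.97 and 8.03 per 10000 in the *Adamtsl1*-high and 13.6 and 12.7 in the *Adamtsl1*-low nuclei of the female and male library over 6 of 6 markers. The 6 non-myelinating Schwann cell markers stood at 7.28 and 10.7 in the *Adamtsl1*-high against 12.2 and 12.7 in the *Adamtsl1*-low nuclei, and the 8 myelinating markers at 28.9 and 29.8 against 18.6 and 21.5. Satellite glia markers stood at 6.31 and 5.11 in the *Adamtsl1*-high against 11.3 and 7.72 in the *Adamtsl1*-low nuclei, with 5 of 6 seen in the female *Adamtsl1*-low nuclei and 6 of 6 in the others. The part of these lists in the ratios was not tested.

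**Figure D2:**
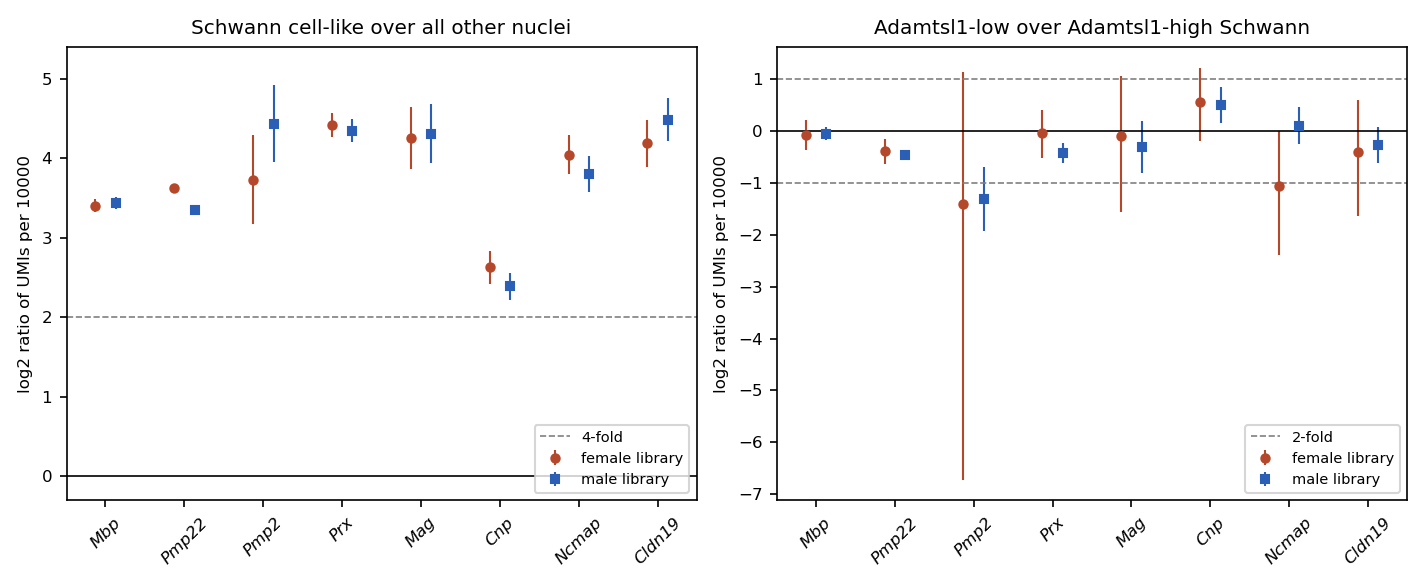
log2 ratio of the level of each gene between Schwann cell-like and all other nuclei (left; dashed line, 4-fold) and between *Adamtsl1*-low and *Adamtsl1*-high Schwann nuclei (right; dashed lines, 2-fold), circles for the female and squares for the male library, with exact 95% intervals. On the left all 16 points lie above 4-fold with *Cnp* lowest, and on the right the male points of *Pmp2* and *Pmp22* lie below 0 and that of *Cnp* above it.

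When the values that entered the clustering were set to the same mean and spread in the 2 libraries separately, the Schwann cell-like nuclei split into clusters that both libraries shared, of 329 and 340 nuclei with high and 209 and 345 nuclei with low *Adamtsl1*. *Adamtsl1* itself was 3.76 and 3.98 per 10000 in the first and 0.475 and 0.368 in the second. In this division nearly all *Pmp2* UMIs lay in the nuclei with high *Adamtsl1*, with 56 UMIs against 0 among female and 89 against 4 among male nuclei. At a floor of 3 UMIs the female level was at least 7.60-fold higher in the *Adamtsl1*-high nuclei, and the male log2 ratio was -3.91 (-5.82 to -2.51). *Pmp22* stood at 40.2 and 41.6 per 10000 against 22.2 and 25.4, log2 ratios of -0.86 (-0.97 to -0.75) and -0.71 (-0.79 to -0.63). *Cldn19* was lower in the *Adamtsl1*-low nuclei in both libraries too, with ratios of -0.62 (-1.11 to -0.15) and -0.59 (-0.97 to -0.22), and so were *Prx* (-0.28 and -0.45) and *Mbp* (-0.17 and -0.15), by small amounts. *Cnp* kept its direction in the female library, at 0.57 (0.22 to 0.92), and was at 0.12 (-0.19 to 0.42) in the male library. *Ncmap* had ratios of -0.36 (-0.75 to 0.02) and -0.23 (-0.58 to 0.11). *Mag* had ratios of opposite sign, 0.23 (-0.32 to 0.77) and -0.28 (-0.79 to 0.22), and all these intervals of *Ncmap* and *Mag* hold 0. This division was made by the same counts with the 8 genes left out, and its clusters still carry no replicate check.

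The link of *Pmp2* with *Adamtsl1* could be read without any clusters inside the Schwann cell-like nuclei. In the 37 female nuclei with a *Pmp2* UMI, *Adamtsl1* stood at 11.5 (9.89 to 13.3) per 10000, and in the 501 without one at 1.54 (1.31 to 1.79). In the male library the levels were 7.14 (5.97 to 8.46) in 39 nuclei and 1.91 (1.70 to 2.14) in 655. *Erbb4*, a receptor for neuregulins, stood at 10.3 and 8.43 in nuclei with a *Pmp2* UMI and at 2.51 and 2.76 in those without, and for neither gene did the intervals overlap. *Prx*, which marks myelinating cells of either subset, was closer, at 8.82 (7.44 to 10.4) against 7.41 (6.90 to 7.94) and 6.11 (5.04 to 7.35) against 5.27 (4.92 to 5.64), with intervals that overlap in both libraries. Nuclei with a *Pmp2* UMI were deeper, with medians of 3658 and 3149 UMIs against 1743 and 1921, and the part of depth in these levels was not tested beyond dividing by each group's UMIs.

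**Figure D3:**
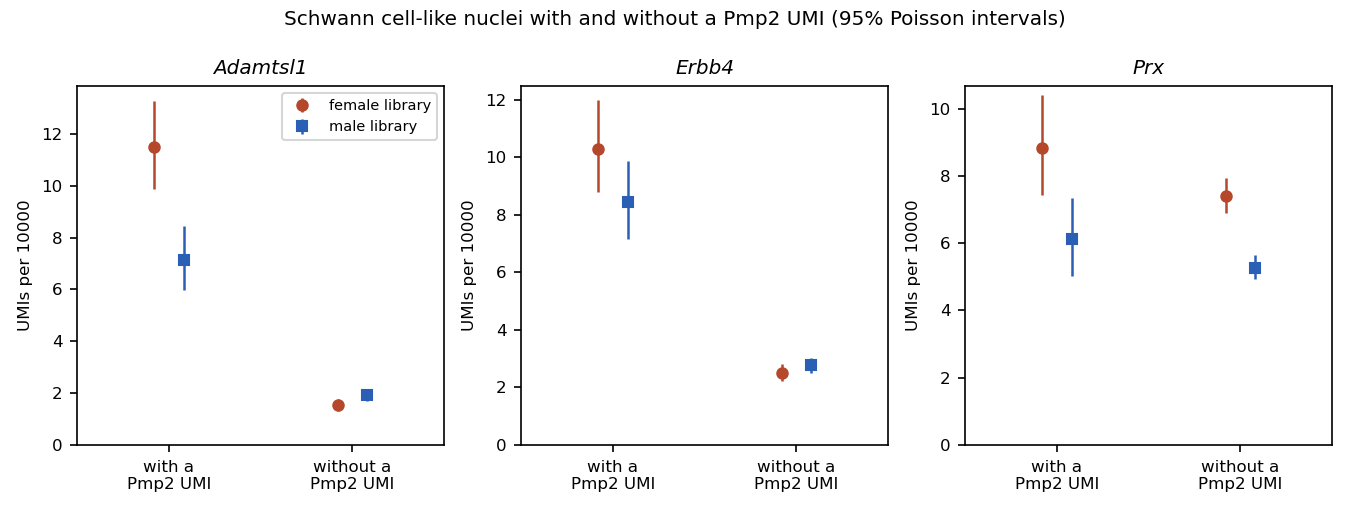
Level of *Adamtsl1*, *Erbb4* and *Prx* in UMIs per 10000 UMIs in Schwann cell-like nuclei with and without a *Pmp2* UMI, circles for the female and squares for the male library, with exact 95% Poisson intervals. *Adamtsl1* falls from 11.5 and 7.14 to 1.54 and 1.91 and *Erbb4* from 10.3 and 8.43 to 2.51 and 2.76, while the intervals of *Prx* overlap.

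In non-myelinating Schwann cell-like nuclei, most myelin genes lay between those of Schwann cell-like nuclei and the stray level. *Mbp* stood there at 7.33 (6.63 to 8.09) among female and 9.37 (7.97 to 11) among male nuclei, log2 ratios of 1.54 and 1.96 over macrophage-like nuclei. *Pmp22* stood at 8.56 and 12.2 per 10000, and *Prx* at 1.30 and 2.25 against 0.366 and 0.549 in macrophage-like nuclei. *Cnp*, at 1.76 (1.43 to 2.15) and 2.61 (1.9 to 3.5), was the one gene of the 8 whose level overlapped that of Schwann cell-like nuclei in both libraries. The log2 ratio of Schwann cell-like over these nuclei was 0.41 (0.07 to 0.75) and -0.33 (-0.78 to 0.16) for *Cnp*, and 2.54 (2.19 to 2.91) and 1.25 (0.78 to 1.76) for *Prx*. *Pmp2* had 5 UMIs among the female and 0 among the male nuclei of this cluster. *Ncmap* stood at 0.422 (0.267 to 0.633) and 0.297 (0.0963 to 0.692), and in the male library it was no higher than in macrophage-like nuclei, at 0.343. Oligodendrocyte markers stood higher in this cluster than in Schwann cell-like nuclei, with 5 of 6 markers seen and summed levels of 0.477 and 1.25 per 10000, *Mog* with 6 UMIs in each library and *Opalin* at 0 in the male library, and their part in the levels of *Mbp*, *Mag* and *Cnp* was not tested.

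In the unnamed cluster led by *Ednrb* and *Fabp7*, *Mbp* stood at 4.40 (3.65 to 5.26) and 3.97 (3.67 to 4.28), 1.74-fold and 1.65-fold over macrophage-like nuclei with intervals above 1. *Cnp* was at 0.734 and 1.06 there, and its log2 ratio to macrophage-like nuclei of 0.74 and 0.63 had intervals that hold 0 in both libraries. *Mbp* was thus the one gene of the 8 whose interval left out 0 in both libraries of this cluster. In satellite glia-like nuclei none of the 8 genes was above macrophage-like nuclei in both libraries by its interval, and *Mbp* came nearest, at 3.37 and 2.77 per 10000 against 2.53 and 2.40. Satellite glia-like nuclei were deeper, with a median of 3022.5 against 1802 UMIs over both libraries, and the part of depth was not tested. For both classes, the share of all genes above macrophage-like nuclei was not taken.

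The order of 15 classes of nuclei by level was the same at the top for most genes. The *Adamtsl1*-high and *Adamtsl1*-low nuclei took the first 2 places for all 8 genes in the female library and for 7 in the male library, where the non-myelinating nuclei led *Cnp*. The first of these clusters was *Adamtsl1*-high but for *Cnp* in both libraries and *Ncmap* in the male library. The intervals of the first 2 places did not overlap for *Pmp22* in either library and for *Pmp2* and *Prx* in the male library, and they overlapped in all other cases. The non-myelinating Schwann cell-like nuclei took the third place for 7 genes in the female library, all but *Pmp2*, and for 5 in the male library, *Mbp*, *Pmp22*, *Prx*, *Mag* and *Cldn19*. Of the 14 pairs of neighbours in the whole order, 10 to 14 overlapped for each gene in either library. Neuron-like nuclei were last in both libraries for *Mbp*, at 0.70 and 0.779 per 10000, and for *Pmp22*, at 2.05 and 2.72.

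All 8 genes were read outside Schwann cell-like nuclei too, also in classes that should not make myelin. Outside the Schwann cell-like nuclei their median level was 6.79% of that in Schwann cell-like nuclei among female and 6.10% among male nuclei, from 4.67% for *Prx* to 16.1% for *Cnp* among female and from 4.47% for *Cldn19* to 19.1% for *Cnp* among male nuclei. In macrophage-like nuclei the summed level of the 8 genes was 7.03 (6.07 to 8.10) and 11.3 (10.1 to 12.6) per 10000, and in neuron-like nuclei 3.31 (3.19 to 3.44) and 4.21 (4.11 to 4.30), against 69.5 and 60.9 in Schwann cell-like nuclei. A nucleus thinned to 1000 UMIs showed UMIs of 3 or more of the 8 genes in 64.8% and 49.9% of Schwann cell-like nuclei, in 1.48% and 6.57% of macrophage-like nuclei and in 0.758% and 0.822% of neuron-like nuclei. All other nuclei include the non-myelinating Schwann cell-like ones. RNA of the 8 genes in classes that should not make myelin is called stray here. The word tells where the RNA was read and not its source, which was not tested for any of the 8 genes.

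Each gene was also set against *Prx* in the same nuclei, summed over both libraries. *Mag* had 0.152 UMIs per *Prx* UMI (0.133 to 0.172) in Schwann cell-like nuclei and 0.162 (0.139 to 0.188) in all others, and *Cldn19* had 0.277 (0.251 to 0.305) and 0.284 (0.251 to 0.319). *Pmp2* had 0.0784 and 0.0935 with overlapping intervals as well. For these 3 genes the intervals inside and outside the Schwann cell-like nuclei overlapped. *Ncmap* was somewhat higher outside, at 0.450 (0.407 to 0.498) against 0.326 (0.298 to 0.358). *Mbp* had 2.53 (2.40 to 2.67) in Schwann cell-like nuclei and 4.91 (4.62 to 5.22) outside, and *Pmp22* had 5.57 (5.30 to 5.85) and 10.7 (10.1 to 11.3). *Cnp* moved most, from 0.348 (0.318 to 0.381) to 1.30 (1.21 to 1.40). The same 3 genes stood above their Schwann cell ratio in neuron-like nuclei, at 4.08, 13.6 and 1.60 UMIs per *Prx* UMI, and in macrophage-like nuclei, at 5.35, 11.2 and 1.23. By library, *Pmp22* had 4.60 and 6.52 UMIs per *Prx* UMI in Schwann cell-like nuclei and 8.0 and 12.9 in all others, and *Cnp* 0.307 and 0.389 against 1.06 and 1.51.

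**Figure D4:**
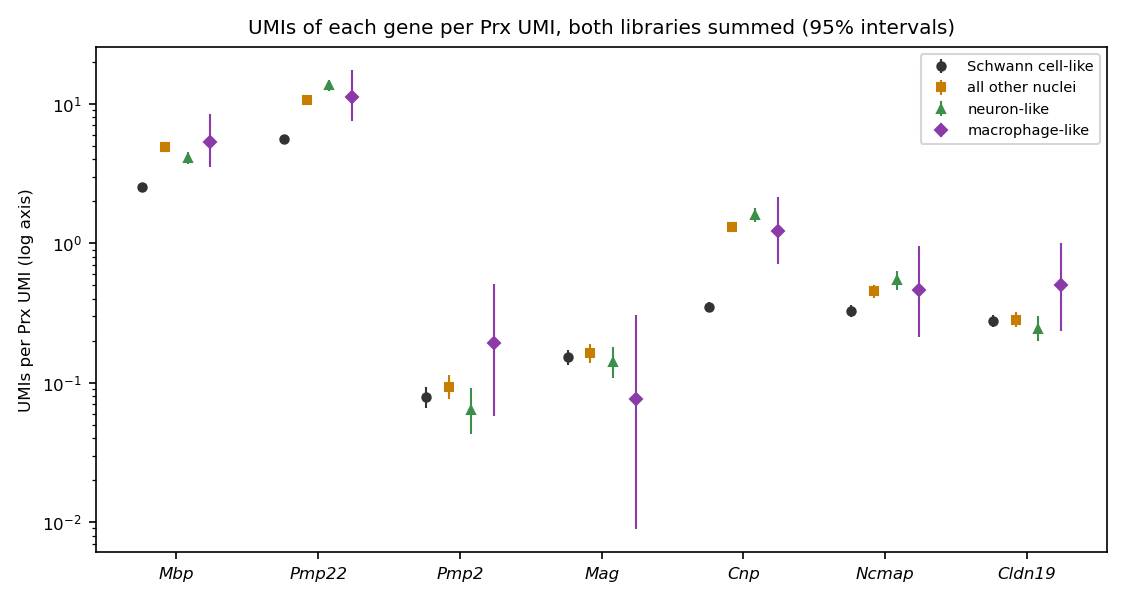
UMIs of each of 7 genes per *Prx* UMI (log axis), summed over both libraries, in Schwann cell-like nuclei (circles), all other nuclei (squares), neuron-like nuclei (triangles) and macrophage-like nuclei (diamonds), with exact 95% intervals. The intervals of *Mag* and *Cldn19* overlap between Schwann cell-like and all other nuclei, while *Mbp*, *Pmp22* and *Cnp* rise from 2.53 to 4.91, from 5.57 to 10.7 and from 0.348 to 1.30.

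Neuron-like nuclei ranged widely in depth, so that the stray level could be set against depth. They were clusters 2, 9, 4 and 7, with medians of 2190, 6878, 12278 and 14143 UMIs, so that depth and neuron cluster cannot be told apart here. Among those of up to 2000 UMIs, the 8 genes summed to 6.06 (4.99 to 7.28) per 10000 among female and 8.59 (7.45 to 9.85) among male nuclei. In those of over 15000 UMIs they summed to 2.92 (2.78 to 3.07) and 3.98 (3.86 to 4.10). The level fell with depth while the number of these UMIs per nucleus rose, from 0.890 to 9.48 among female and from 1.38 to 10.5 among male nuclei. Neither the share of a nucleus taken by myelin RNA nor its amount was thus fixed over depth.

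**Figure D5:**
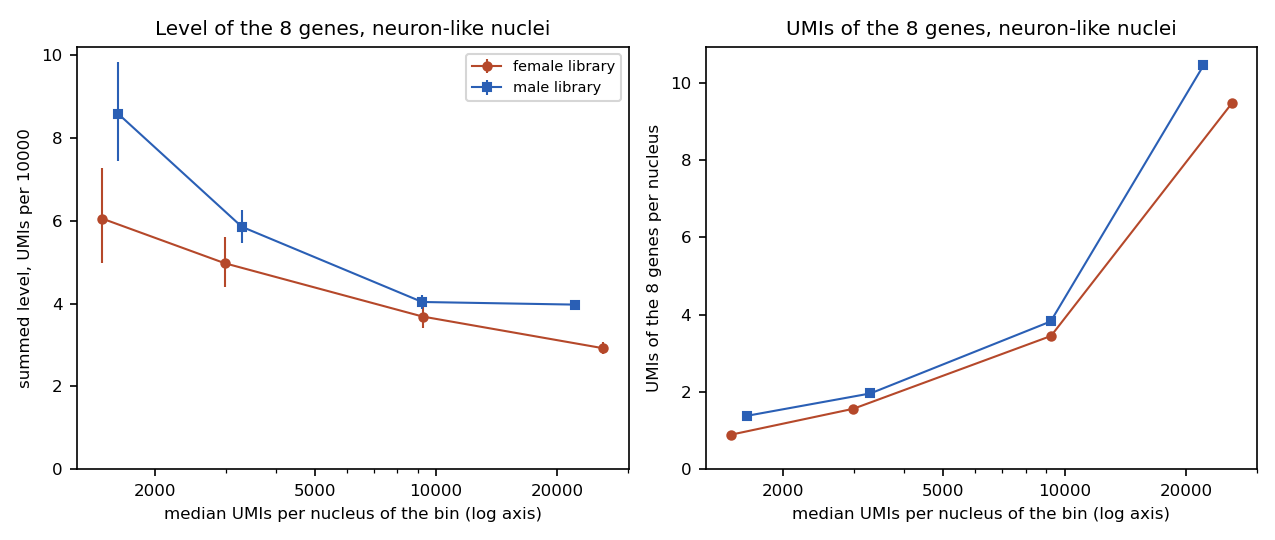
Summed level of the 8 genes in UMIs per 10000 UMIs (left, with exact 95% Poisson intervals) and UMIs of the 8 genes per nucleus (right) in neuron-like nuclei by depth, in 4 bins of UMIs per nucleus placed at the median of each bin (log axis), circles for the female and squares for the male library. From the shallowest to the deepest bin the level falls from 6.06 to 2.92 and from 8.59 to 3.98, while the UMIs per nucleus rise from 0.890 to 9.48 and from 1.38 to 10.5.

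Between the libraries, 7 of the 8 genes were lower in the male than in the female Schwann cell-like nuclei, or level with them. Over all nuclei 7 of the 8 were lower in the male library too, with a median log2 ratio of -0.42 against -0.30 in Schwann cell-like nuclei. All nuclei include the Schwann cell-like nuclei and differ in make-up between the libraries, so that they do not show the pattern outside those nuclei. In macrophage-like nuclei 5 of the 8 genes were higher and 3 lower in the male library, with a median log2 ratio of 0.61. The share of all genes lower in the male library was not taken. The log2 ratio of male over female was -0.43 (-0.51 to -0.35) for *Mbp*, -0.50 (-0.63 to -0.37) for *Prx*, -0.54 (-0.77 to -0.31) for *Ncmap* and -0.43 (-0.77 to -0.09) for *Mag*. For *Cnp* (-0.16), *Cldn19* (-0.17) and *Pmp22* (-0.00, with an interval of -0.06 to 0.06) the interval held 0, as it did for *Pmp2* at 0.20 (-0.29 to 0.71). In the nuclei with high *Adamtsl1* of the division that both libraries shared, *Mbp* stood at 19.3 (18.4 to 20.2) and 14.5 (13.8 to 15.2), and *Prx* at 8.03 (7.45 to 8.64) and 6.02 (5.56 to 6.51), without overlap. *Pmp22* stood there at 40.2 (38.9 to 41.6) and 41.6 (40.4 to 42.9), with overlapping intervals. In macrophage-like nuclei, by contrast, *Pmp22* was higher in the male library, by a log2 ratio of 1.05 (0.68 to 1.42), and the stray level as a whole was higher there. The libraries are 1 pool each, so these differences have no replicate check.

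Of 36 further genes of the myelin programme, 13 were at least 4-fold higher in Schwann cell-like nuclei in both libraries, against 2.03% of all genes, and 0 were at least 4-fold lower. Their median log2 ratio was 1.81 among female and 1.93 among male nuclei, below that of the 8 genes. Among myelin membrane proteins 5 of 8 were raised, among them *Gjb1* (connexin 32, of the incisures), at 0.258 and 0.246 per 10000 against 0.0154 and 0.00855. *Cd9*, a tetraspanin, was at 14.4 and 18.5 against 3.56 and 6.44 and did not pass 4-fold in the male library. Of 7 genes of lipid synthesis 3 were raised, all of them genes of the myelin sphingolipids. *Cers2*, of the same list, had log2 ratios of 2.04 and 1.79 and did not pass 4-fold in the male library. *Ugt8a*, which makes galactosylceramide, had log2 ratios of 4.53 (4.36 to 4.71) and 4.50 (4.35 to 4.65), *Fa2h*, which hydroxylates its fatty acid, 4.44 and 4.59, and *Gal3st1*, which makes sulfatide, 3.18 and 3.19. The cholesterol genes *Sqle* and *Fdft1* had log2 ratios of 0.35 and 0.37 and of 0.28 and 0.31.

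Of 5 genes of the node and paranode only *Gldn* (gliomedin, which gathers sodium channels at the node) was raised, with log2 ratios of 4.40 and 4.36. *Nfasc* was at 6.18 and 4.38 per 10000 against 1.31 and 1.37, while *Cntn2* and *Epb41l3* were lower in Schwann cell-like nuclei than in others, at log2 ratios of -1.16 and -0.87 and of -1.69 and -1.54. Of 8 transcription factors, *Sox10*, at 2.0 and 1.47 against 0.334 and 0.259, and *Pou3f1*, at 0.774 and 0.637 against 0.0722 and 0.0470, were raised. *Zeb2*, which is needed for myelination and is used by other cells too, was at 11.9 and 9.38 against 6.80 and 5.03. Of 8 genes of receptors, ligands and the outer membrane complex, *Dag1* (dystroglycan, the partner of the *Prx* and *Drp2* complex) and *Utrn* were raised, at log2 ratios of 2.26 and 2.46 and of 2.01 and 2.14. *Erbb3*, the receptor of axonal neuregulin, was at 1.30 and 1.32 against 0.357 and 0.303 and passed 4-fold in the male library only.

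The genes most like the 8 in profile were sought over 38 profiles, 19 clusters in each of the libraries, by Pearson's r with the mean log2 level of the members, with 0.05 added. The nearest was *Drp2*, the partner of *Prx*, at 0.97, followed among others by *Arhgap19*, *Bcas1*, *Shc4*, *Cryab*, *Mlip*, *Gldn*, *Pllp* and *Fam178b*, at 0.95 to 0.91. *Drp2*, *Bcas1* and *Pllp* are among the markers that named the clusters, and the profiles share libraries and depth, so that r is a description. Each member correlated with the mean of the other 7 at 0.75 for *Pmp2*, 0.88 for *Cnp* and 0.90 to 0.94 for the remaining genes, with *Pmp2* lowest, the gene of fewest UMIs.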

How the data were processed

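Nuclei of vagus nerve ganglia were sequenced on the 10x Genomics 3′ platform. The authors aligned reads to mm10 with an added transgene sequence using Cell Ranger 7.1.0, introns included, removed debris and doublets with Cell Ranger and DIEM, joined the 2 libraries after evening out their mapped reads, and deposited UMI counts per gene and nucleus. No further nuclei were removed and no doublet caller was run here.

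From the counts, scaled to the median depth, log2-transformed and z-scored, 10 principal components of 23553 genes gave 243 neighbours per nucleus and 19 Louvain clusters (Python 3.11.15, numpy 2.4.6, scipy 1.17.1, scikit-learn 1.9.0, igraph 0.11.9). Rebuilt clusters may differ from the study's. The 8 members, 36 myelin-related genes and the sex-linked genes took no part in the clustering. A cluster was named from 13 marker lists by the list of highest mean fold, where at least 3 of its markers stood 1.5-fold over the other clusters with at least 10 UMIs and no other list had more markers among the 10 leading genes. A cluster led by *Pou1f1* and *Pomc* was left unnamed after its leading genes were seen. Named genes were the 8 members, the 36 genes and the 10 genes of at least 200 UMIs with the most similar profile, and some of these genes are counted but not reported here by name. Members and lists were chosen with earlier results of these data known. Levels have exact Poisson, shares Clopper-Pearson and ratios exact conditional intervals at 95%, and log2 folds across all genes had 0.5 UMIs added. Shares of nuclei were also taken after thinning each nucleus to 1000 UMIs, which left out 19 shallower female nuclei. The scripts were tested on simulated counts. The alternatives were each library alone, other clusterings, deeper nuclei, means over nuclei and a higher UMI minimum.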

Additional observations from a re-analysis of the deposited data

Results flagged for a closer look

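In the main clustering, *Ncmap* was the member whose log2 ratio between *Adamtsl1*-low and *Adamtsl1*-high nuclei pointed in opposite directions in the 2 libraries. It was -1.05 in the female library, where the *Adamtsl1*-low nuclei held 7 *Ncmap* UMIs and the *Adamtsl1*-high nuclei 304, and 0.11 in the male library. In the division that both libraries shared, *Ncmap* was at -0.36 and -0.23, while *Mag* had opposite signs, at 0.23 and -0.28, with intervals that hold 0. The difference between the libraries was not tested, as each sex is 1 library.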

How the results depend on the processing

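All 8 genes passed 4-fold in Schwann cell-like nuclei under every alternative but 1, the mean over nuclei of each nucleus' share of UMIs, where *Cnp* was at 3.88-fold in its lower library and 7 genes passed. With the libraries summed, or 1 library where it was taken alone, the 64 log2 ratios of the 8 genes ranged from 2.24 to 5.01. The share of member UMIs in Schwann cell-like nuclei, 45.2% over both libraries, was 48.4% in the female library alone, 43.0% in the male library alone, 42.3% with 20 principal components, 44.8% with genes scaled within each library, 39.8% in nuclei of over 2000 UMIs, 58.3% by the mean over nuclei, and 48.9% when the non-myelinating cluster was counted in, a choice made after the data were seen. The median level in other nuclei, 6.12% of that in Schwann cell-like nuclei, was 10.1% by the mean over nuclei. Of the 36 myelin-related genes 10 to 16 passed 4-fold under the alternatives, 16 with a single library. Between the subsets the median log2 ratio, -0.34 over both libraries, ranged from -0.23 to -0.45. Subset ratios under the alternatives were set against values pooled over both libraries, which mix the subset with the library. *Ncmap* turned from -0.38 to 0.11 with the male library alone, and the cause was not tested. Of the 56 subset ratios, 32 moved by less than their counting interval, 23 by more and 1 reversed. A change of sign was counted as reversed only where the main interval left out 0. Among the 56 ratios 7 were above 0, *Ncmap* among them, and 49 below, so that *Cnp* was not above 0 in every alternative. No paired analysis was possible because each sex is 1 library and no test was made. Depth limits *Pmp2* most, with 266 UMIs in all.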
